A study of Mus musculus with 4 samples.

Results

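Cd8a-positive Cd8b1-negative T cells were examined at the borders of the mouse brain, in meninges and choroid plexus, at a young and an old age. These cells carried at least 1 unique molecular identifier (UMI, a tag that counts 1 captured transcript) of Cd8a, none of Cd8b1 and none of Cd4, together with a UMI of Cd3d, Cd3e or Cd3g. Among cells with 200 to 7000 genes and at most 5% mitochondrial UMIs, 95 cells met this rule, out of 4801 cells in the files, 4208 cells within these limits and 4157 T cells. They were compared with the 858 T cells that carried UMIs of both Cd8a and Cd8b1. The cells were selected on their counts of Cd8a, Cd8b1, Cd4 and the Cd3 genes, so these genes are described and were not tested.

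T cells were sorted from pooled tissue of 5 female C57BL/6 mice per group, with no transgene or treatment in any group. The libraries, 4 in all, came from young meninges (10 weeks old), young choroid plexus, then aged meninges (18 months old) and aged choroid plexus, and values below follow this library order. Whether both tissues of an age came from the same mice is not given in the sources used here. They held 1111, 718, 1695 and 1277 cells and 3737140, 2295950, 4262917 and 3957717 UMIs. The Cd8b1-negative cells numbered 11, 13, 26 and 45, and the Cd8b1-positive cells 183, 106, 203 and 366. Aged and young mice were therefore compared between single libraries, without a test, and all intervals cover counting error only.

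CD8 sits on the T-cell surface as a pair of chains, either an alpha chain from Cd8a with a beta chain from Cd8b1, or 2 alpha chains. Conventional cytotoxic T cells carry the alpha-beta form, which assists recognition of antigen on MHC class I. The alpha-alpha form is known from innate-like T cells of the gut epithelium, which often carry natural killer receptors, and the adaptor encoded by Fcer1g, a signalling chain shared by Fc receptors and natural killer receptors, is among their known markers. The beta chain can be missing from a transcriptome either because the cell does not make it or because its few transcripts were not captured, an error called dropout.

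Cd8a (ENSMUSG00000053977) lies on mouse chromosome 6 at 71373427 to 71379173 on the plus strand (GRCm38), and Cd8b1 (ENSMUSG00000053044) at 71322788 to 71337494 on the same strand, 35932 bases away. Cd8a transcripts were few in the cells chosen. Of the 95 Cd8b1-negative cells, 46 had 1 Cd8a UMI, 26 had 2 and 23 had 3 or more. Their Cd8a level was 490, 503, 656 and 734 CPM (UMIs of the gene scaled to a common total of the population), against 683, 700.0, 960 and 998 CPM in the Cd8b1-positive cells. Cd8b1 stood at 1221, 1201, 1116 and 1136 CPM in the Cd8b1-positive cells.

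Cells without Cd8b1 made up 5.67% of Cd8a-positive cells in the young meninges (95% Clopper-Pearson interval 2.86 to 9.92%). The share was 10.9% in the young choroid plexus (5.95 to 18%), 11.4% in the aged meninges (7.55 to 16.2%) and 10.9% in the aged choroid plexus (8.10 to 14.4%). These intervals overlap, and no order between the libraries was read from them. As a share of all T cells the Cd8b1-negative cells were 1.08%, 2.07%, 1.85% and 4.09%. The only anti-CD8 clone named in the study's methods, in the section on cytometry and sorting, binds the beta chain. The section on sequencing states that CD4 and CD8 T cells were sorted and names no antibody itself. The sort may therefore have selected on the beta chain, and its part in the shares was not tested.

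The share of cells without Cd8b1 was set against the number of Cd8a UMIs, since dropout is more frequent where few transcripts are captured. Among cells with 1 Cd8a UMI, 8.47%, 18.8%, 21.9% and 21.9% lacked Cd8b1. Among cells with 3 or more, 3.53%, 3.85%, 4.63% and 5.65% lacked it. The share was lower at 3 or more Cd8a UMIs than at 1 in all 4 libraries, but the intervals overlapped in both young libraries. The mirror gate, Cd8b1-positive cells without Cd8a, gave larger shares of 26.5%, 31.2%, 20.4% and 15.1%. It concerns missing Cd8a, whose level was below that of Cd8b1 in the Cd8b1-positive cells of each library. It is therefore not a measure of how often Cd8b1 was missed. Drawing 1000 UMIs from each cell and gating again, which removes UMIs of any cell, gave shares of Cd8a-positive cells without Cd8b1 of 26.6%, 24.6%, 32.6% and 38.0%. Median depth per Cd8b1-negative cell was 3969, 3388, 2794 and 2618 UMIs, against 3776, 3939.5, 2942 and 3227.5 in the Cd8b1-positive cells, so that all but those of the young meninges were shallower. Cells that lack Cd8b1 and have less Cd8a cannot be told apart here from cells whose Cd8b1 transcripts were not captured.

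**Figure D1:**
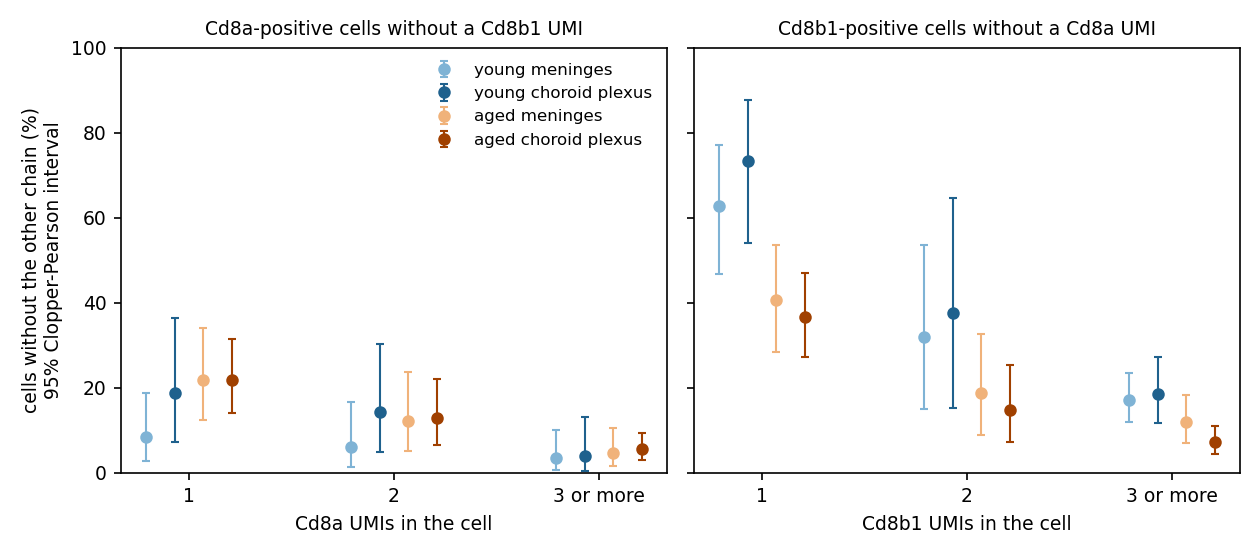
Share of cells lacking the other CD8 chain (%) against the number of UMIs of the chain detected, for Cd8a-positive cells (left) and Cd8b1-positive cells (right) of each library; points are shares and bars 95% Clopper-Pearson intervals. The share falls from 1 UMI to 3 or more UMIs in every library and in both panels, from 8.47% to 3.53% in the young meninges and from 21.9% to 5.65% in the aged choroid plexus on the left. On the left the intervals at 1 UMI and at 3 or more overlap in both young libraries.

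Free RNA can also place a Cd8a UMI in a cell that does not make it. Among Cd4-positive T cells without Cd8b1, 0.383%, 0%, 1.09% and 1.28% carried a Cd8a UMI, against 2.22%, 4.51%, 3.42% and 11.2% of the Cd4-negative T cells without Cd8b1. The count of 0 came from 166 cells and allows up to 2.20% (upper Clopper-Pearson limit). The interval in Cd4-negative cells lay above that in Cd4-positive cells in the young choroid plexus (2.43 to 7.60% against 0 to 2.20%) and in the aged choroid plexus (8.26 to 14.7% against 0.265 to 3.7%), and overlapped it in the meninges.

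Cells on either side of the Cd8b1 limit were set side by side as a description. The 124 Cd8a-positive cells with exactly 1 Cd8b1 UMI had a UMI of Il7r in 52.4%, of Ikzf2 in 5.65% and of Fcer1g in 4.03%. Of the 734 cells with 2 or more Cd8b1 UMIs, 63.4%, 8.17% and 0.409% did, and of the 95 cells with none, 34.7%, 25.3% and 8.42%. For Ikzf2 the cells with 1 Cd8b1 UMI were no nearer to the cells with none than those with more. For Il7r they lay between, in each library. For Fcer1g they lay between in the sum over libraries, but within a library only in the young choroid plexus, on 1 of 8 cells. In the aged choroid plexus the share was 6.45% with 1 Cd8b1 UMI and 2.22% with none, and in the young meninges 0% with 1 and 1.20% with more. Of the 5 Fcer1g-positive cells with 1 Cd8b1 UMI, 4 came from the aged choroid plexus.

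The T-cell label was checked against receptor chains and markers of other cells. Trac, the constant region of the alpha chain, was detected in 62 of the 95 Cd8b1-negative cells, and a beta constant region (Trbc1 or Trbc2) in 73. In the Cd8b1-positive cells the numbers were 500 and 647 of 858. Trdc, the delta constant region that defines gamma-delta T cells, was found in 1 of 95 and 5 of 858 cells. Gamma constant regions (Tcrg-C1, Tcrg-C2 or Tcrg-C4), whose transcripts alpha-beta T cells can also carry, were found in 24 of 95 cells, and by library in 2, 3, 3 and 16 cells. The Cd8b1-positive cells had them in 173 of 858. By library the shares were 18.2%, 23.1%, 11.5% and 35.6% in the Cd8b1-negative cells and 3.28%, 3.77%, 21.2% and 32.8% in the Cd8b1-positive cells, so that the Cd8b1-negative share was the higher one in both young libraries and the lower one in the aged meninges.

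Markers of other lineages were counted next. The 12 macrophage and monocyte genes summed to 0, 1, 0 and 0 UMIs in the Cd8b1-negative cells, and the 12 neutrophil and mast cell genes to 0 in each library. The 12 B-cell genes summed to 9, 5, 6 and 18 UMIs, led by Ighm or Igkc, at 201, 114, 74.3 and 133 CPM against 238, 147, 112 and 102 CPM in the Cd8b1-positive cells. A UMI of Cd79a, Cd79b, Ms4a1 or Ighm was found in 6 of 11, 5 of 13, 3 of 26 and 9 of 45 Cd8b1-negative cells, and in 54.6%, 41.5%, 14.8% and 18% of the Cd8b1-positive cells. The 14 stromal, endothelial and epithelial genes summed to 0, 2, 3 and 5 UMIs, and the 5 red cell genes to 1, 0, 10 and 0. The 14 dendritic cell genes, led by Cst3 or Bst2, summed to 12, 7, 14 and 40 UMIs, or 267, 160.0, 173 and 296.5 CPM, against 310, 311, 463 and 339 CPM in the Cd8b1-positive cells. Natural killer cell genes, led by Gzma in the young meninges and by Nkg7 in the others, summed to 327, 235, 447 and 511 UMIs. That was 7287, 5371, 5534 and 3788 CPM against 1900, 2510, 4425 and 3574 CPM in the Cd8b1-positive cells, the higher value in each library. Of that list Ncr1, a defining receptor of natural killer cells, was found in 1 of the 95 cells, and its UMIs came from a cell with Trac and Trbc transcripts. Klrb1c and Klre1 of the list are given by cell below.

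To ask which other genes differed between the populations, UMIs were summed per library and population, and Cd8b1-negative sums were compared with Cd8b1-positive sums of the same library (edgeR quasi-likelihood test with library as a block, 8 sums). Il7r, Igfbp4 and Rgs10, 3 of the 13 naive and recirculating T-cell genes tested, were lower in the Cd8b1-negative cells, and Ikzf2 and Xcl1 were among the genes that were higher. Of 3569 genes tested, 4 were higher (0.112% of genes) and 7 lower (0.196%) at an adjusted p under 0.05, and 181 had an unadjusted p under 0.05. A log2 ratio above 0 in all 4 libraries was found for 7.34% of the genes tested, and one below 0 in all 4 for 5.38%. DESeq2 called 1 higher, Trbv1, and 0 lower. None of the 11 genes was called in all 4 fits that left out a library, and 4 of the 11 (Gzma, Ikzf2, Il7r and Trbv1) were called in 3 of them.

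Il7r, the interleukin 7 receptor alpha chain that sustains naive and memory T cells, was at 223, 297, 371 and 230 CPM in the Cd8b1-negative cells. Cd8b1-positive cells had it at 672, 585, 530 and 443 CPM. The Cd8b1-negative value was the lower one in each library, and every Cd8b1-negative value lay below every Cd8b1-positive one. The log2 fold change was -1.02 ± 0.19 (SE, adjusted p = 0.00147, edgeR, 4 libraries). Without the young meninges the adjusted p was 0.124. An Il7r UMI was found in 4 of 11, 4 of 13, 10 of 26 and 15 of 45 Cd8b1-negative cells.

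Igfbp4, an insulin-like growth factor binding protein transcribed in naive T cells, had 0, 3, 0 and 0 UMIs in the Cd8b1-negative cells. The Cd8b1-positive cells held 217, 104, 16 and 49 UMIs, or 268, 225, 23.4 and 35.2 CPM. In the young meninges the level was at least 4-fold lower in the Cd8b1-negative cells, taken against a floor of 3 UMIs in that library. The fitted log2 fold change at these low counts was -3.34 ± 0.57 (SE, adjusted p = 0.000675, edgeR). How far it depends on the prior count was not tested. Without the young meninges the log2 fold change was -2.50 (adjusted p = 0.467, edgeR).

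Rgs10, a regulator of G-protein signalling, was at 44.6, 114, 12.4 and 51.9 CPM in the Cd8b1-negative cells against 221, 197, 80.3 and 131 CPM (log2 fold change -1.60 ± 0.34, SE, adjusted p = 0.0103, edgeR). It was lower in 4 of 4 libraries, and the call was lost without the young meninges (adjusted p = 0.491) or the aged meninges (adjusted p = 0.204). Plac8, found in recirculating lymphocytes, had 2, 0, 1 and 0 UMIs against 72, 29, 33 and 110 UMIs (log2 fold change -2.84 ± 0.66, SE, adjusted p = 0.0300, edgeR). It was called in 1 of the 4 fits without a library, that without the young choroid plexus.

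Tsc22d3, a glucocorticoid-induced leucine zipper protein, was at 357, 160.0, 173 and 119 CPM in the Cd8b1-negative cells and at 687, 305, 308 and 183 CPM in the Cd8b1-positive cells. It was lower in 4 of 4 libraries (log2 fold change -0.92 ± 0.21, SE, adjusted p = 0.0266, edgeR), and was called only in the fit without the aged choroid plexus among the fits without a library. Ly6c2, a surface antigen of memory CD8 T cells, was at 713, 251, 409 and 148 CPM against 683, 514, 922 and 524 CPM. It was lower in 3 of 4 libraries and slightly higher in the young meninges (log2 fold change -1.06 ± 0.20, SE, adjusted p = 0.00147, edgeR). The call was lost without the aged meninges (adjusted p = 0.204) or the aged choroid plexus (adjusted p = 0.0806, edgeR). With at most 3 UMIs of a gene counted per cell, a limit chosen after seeing the data, the adjusted p of Ly6c2 was 0.123.

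Of the 20 listed naive and recirculating genes, 13 were tested. Igfbp4, Rgs10 and Il7r were called lower, 0 were called higher, and the median log2 fold change was -0.58 against -0.01 over all genes tested. Ccr7, the chemokine receptor that guides naive T cells to lymph nodes, was found in 3 of 11, 1 of 13, 1 of 26 and 1 of 45 Cd8b1-negative cells, and in 121 of 183, 47 of 106, 22 of 203 and 34 of 366 Cd8b1-positive cells. Its share of cells was lower in each library, but its fitted log2 fold change of -0.79 ± 0.31 (SE) did not pass the test (adjusted p = 0.872, edgeR). In the young meninges 12 of its 21 UMIs came from 1 cell. Cd7 had a log2 fold change above 0, at 0.61 ± 0.26 (SE, adjusted p = 0.872, edgeR). Lef1, a transcription factor of naive T cells, had a log2 fold change of -0.85 ± 0.28 (SE, adjusted p = 0.558, edgeR). When cells with a Ccr7 UMI were left out of both populations, Il7r had a log2 fold change of -0.89 (adjusted p = 0.224, edgeR). In that fit 0 genes were called higher and 1 lower, Ly6c2. Some fold changes that lost the call stayed near those of the main comparison. Ikzf2 was at 1.83 against 1.93, Trbv1 at 1.56 against 1.51 and Rgs10 at -1.38 against -1.60. Those of Gzma (1.61 against 2.06), Xcl1 (0.83 against 1.07) and Tsc22d3 (-0.59 against -0.92) were smaller.

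**Figure D2:**
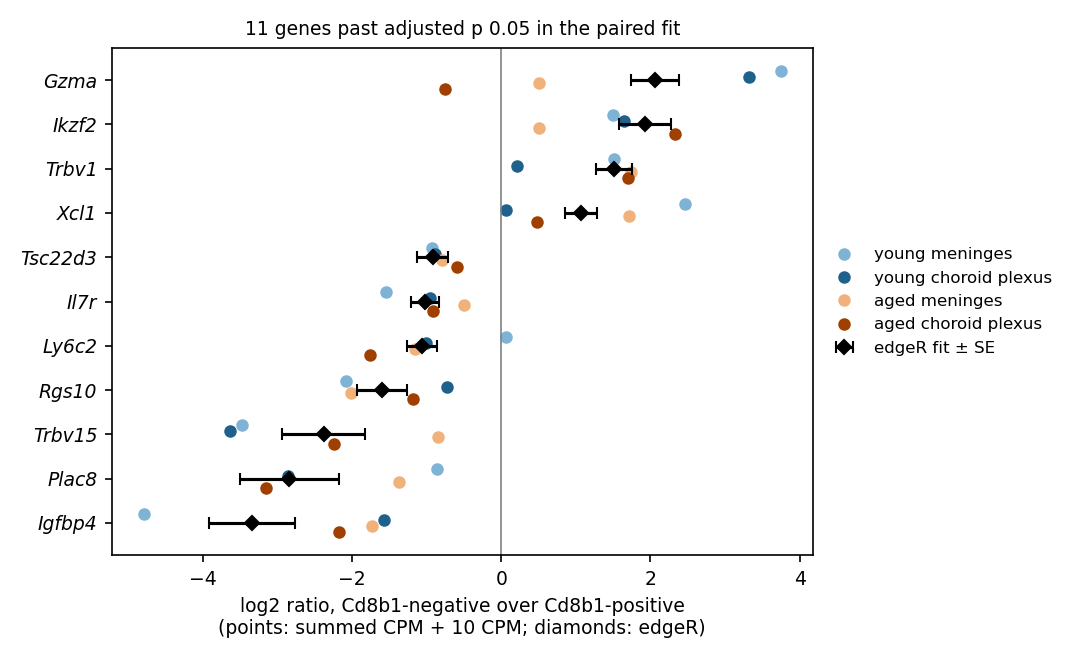
Log2 ratio of Cd8b1-negative over Cd8b1-positive cells for the 11 genes past an adjusted p of 0.05 (edgeR, 4 libraries); coloured points are the libraries (CPM plus 10 CPM) and diamonds the fitted log2 fold change ± SE. Gzma points lie on both sides of 0, from 3.75 in the young meninges to -0.76 in the aged choroid plexus, whereas the Il7r points lie between -1.55 and -0.50.

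Ikzf2 encodes Helios, a transcription factor of regulatory T cells and of some self-reactive and alpha-alpha CD8 T cells. It was at 66.9, 68.6, 74.3 and 341 CPM in the Cd8b1-negative cells. Its level in Cd8b1-positive cells was 17.3, 15.1, 49.6 and 59.7 CPM. The Cd8b1-negative value was the higher one in each library and stood out in the aged choroid plexus. The log2 fold change was 1.93 ± 0.34 (SE, adjusted p = 0.000988, edgeR), and 1.91 (adjusted p = 1.33e-05, edgeR) with at most 3 UMIs of a gene counted per cell. Without the aged choroid plexus it was 1.06 (adjusted p = 0.600, edgeR).

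An Ikzf2 UMI was found in 2 of 11, 2 of 13, 5 of 26 and 15 of 45 Cd8b1-negative cells, and in 12 of 183, 5 of 106, 14 of 203 and 36 of 366 Cd8b1-positive cells. In Cd4-positive T cells of the same libraries its share was 7.55%, 6.49%, 34.2% and 36.2%. Of the 24 Cd8b1-negative cells with Ikzf2, 5 carried Foxp3, the defining transcription factor of regulatory T cells, whereas 0 of the 71 without Ikzf2 did. The other 19 lacked a Foxp3 UMI. Ccl5 was found in 21 of the 24 and Gzmk in 11, and these 11 were all in the aged choroid plexus. The cells with Ikzf2 were deeper, with a median of 3970 UMIs against 2672.

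With at least 2 Cd8a UMIs required of each cell, 0 genes were called, but several fitted log2 fold changes were as large as before. Il7r was at -1.41, Ikzf2 at 2.16 and Trbv1 at 1.70 (each with an adjusted p of 0.0984, edgeR), Xcl1 at 1.24 (adjusted p = 0.168, edgeR) and Ly6c2 at -1.14 (adjusted p = 0.619, edgeR). Gzma was smaller, at 1.20 against 2.06 (adjusted p = 1, edgeR). With 3 or more Cd8a UMIs, an Ikzf2 UMI was found in 6 of 23 Cd8b1-negative cells, all 6 of them aged, and in 37 of 452 Cd8b1-positive cells. Il7r was found in 7 of 23 and 272 of 452, and Xcl1 in 18 of 23 and 224 of 452.

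Xcl1, a chemokine that attracts cross-presenting dendritic cells, was at 357, 343, 1337 and 504 CPM in the Cd8b1-negative cells against 56.7, 328, 401 and 357 CPM. It was higher in 4 of 4 libraries (log2 fold change 1.07 ± 0.22, SE, adjusted p = 0.00623, edgeR). In the aged meninges 86 of its 108 UMIs came from 1 cell, and with at most 3 UMIs of a gene counted per cell the log2 fold change was 0.45 (adjusted p = 0.651, edgeR). The call was also lost without the young meninges (adjusted p = 0.377) or the aged meninges (adjusted p = 0.9998, edgeR).

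Gzma, the tryptase granzyme A, was at 2697, 1211, 371 and 37.1 CPM in the Cd8b1-negative cells and at 191, 112, 260 and 69.8 CPM in the Cd8b1-positive cells (log2 fold change 2.06 ± 0.32, SE, adjusted p = 0.000183, edgeR). Single cells decided this value. All 121 UMIs of the young meninges came from 1 cell and all 53 of the young choroid plexus from another. Only 1 of 11, 1 of 13, 3 of 26 and 3 of 45 cells carried Gzma. With at most 3 UMIs of a gene counted per cell, the log2 fold change was 0.90 (adjusted p = 0.976, edgeR), and without the young meninges it was 1.32 (adjusted p = 0.99999, edgeR).

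A pair of T-cell receptor beta V segments passed the test as well, and were named after their values were seen, since the rule for named genes leaves such segments out. Trbv1 was higher (log2 fold change 1.51 ± 0.24, SE, adjusted p = 0.000183, edgeR) and was found in 2 of 11, 1 of 13, 3 of 26 and 7 of 45 Cd8b1-negative cells. Trbv15 was lower (-2.38 ± 0.56, SE, adjusted p = 0.0318, edgeR) and was found in 0, 0, 1 and 0 of these cells. Each rests on few cells, and a cell transcribes its rearranged V segment at a high level. Without the aged meninges the adjusted p of Trbv1 was 0.102 (edgeR). The call of Trbv15 was lost without the young meninges (adjusted p = 0.639), the young choroid plexus (0.0817) or the aged choroid plexus (0.0914, edgeR).

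The list of CD8 alpha-alpha epithelial T-cell genes had 13 of its 24 genes tested. Gzma, Ikzf2 and Xcl1 were called higher, Ly6c2 lower, and the median log2 fold change was 0.63 against -0.01 over all genes tested. Summed over the list, led by Ccl5, the Cd8b1-negative cells had 18541, 19083, 20562 and 11571 CPM. The Cd8b1-positive cells had 5256, 6319, 18767 and 13185 CPM. The difference thus lay mainly in the young libraries, and the sum was lower in the aged choroid plexus. Itgae, the integrin that retains T cells in epithelium and a member of this list, did not reach the count limit. It had 1, 0, 0 and 2 UMIs in the Cd8b1-negative cells, or 22.3, 0, 0 and 14.8 CPM, against 49.3, 17.3, 8.76 and 61.9 CPM in the Cd8b1-positive cells, the lower value in each library. These counts lie under a floor of 3 UMIs per library, and the difference was not tested. Of the 25 natural killer cell genes, 13 were tested, Gzma and Xcl1 were called higher, 0 were called lower, and the median was 0.46. Of the 20 cytotoxic granule genes, 12 were tested, Gzma was called higher, and the median was 0.52. Their sum, also led by Ccl5, was 18430, 17986, 20414 and 12305 CPM against 5176, 6228, 19795 and 13804 CPM. Ccl5, a chemokine of effector T cells, was at 9872, 12113, 14459 and 7672 CPM against 2833, 3496, 13529 and 9235 CPM, higher in 3 of 4 libraries, and did not pass the test (log2 fold change 0.75 ± 0.21, SE, adjusted p = 0.230, edgeR). Since Gzma and Xcl1 recur across these lists, their counts are not separate evidence. Of the 4 inhibitory receptor genes tested, 0 were called, with a median of 0.51, and Pdcd1, encoding the checkpoint receptor PD-1, had a log2 fold change of 0.53 ± 0.28 (SE, adjusted p = 0.972, edgeR). Of 10 tissue residency genes tested, Xcl1 was called higher, and of 5 helper and regulatory genes, Ikzf2. None of the 5 cell cycle genes tested was called (median -0.50).

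Fcer1g was the marker given for these cells, chosen with results of these data known, and its values are a description. It had 25, 42, 0 and 2 UMIs in the Cd8b1-negative cells, or 557, 960, 0 and 14.8 CPM, against 3.7, 25.9, 0 and 14.4 CPM in the Cd8b1-positive cells. By cells, it was found in 3 of 11, 4 of 13, 0 of 26 and 1 of 45 Cd8b1-negative cells and in 2 of 183, 1 of 106, 0 of 203 and 5 of 366 Cd8b1-positive cells. Both young libraries were high, and both aged libraries were at or near 0. After thinning to 1000 UMIs the shares were 27.3%, 23.1%, 0% and 0% in the Cd8b1-negative cells and 1.09%, 0.952%, 0% and 0.551% in the Cd8b1-positive cells. The aged choroid plexus was at 2.22% before thinning, and its only Fcer1g-positive cell, of 841 UMIs, was left out by the limit of 1000.

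Over both tissues an Fcer1g UMI was found in 7 of 24 young Cd8b1-negative cells (29.2%) and in 1 of 71 aged ones (1.41%). The 0 of 26 cells of the aged meninges allows up to 13.2%. In Cd4-positive cells, which should lack Fcer1g, it was found in 0%, 0.541%, 0.255% and 0.377%, where the median depth was 3265, 3001, 2415.5 and 2850 UMIs. Fcer1g did not reach the count limit of the paired fit.

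The 8 Fcer1g-positive cells can be given one by one. In the young meninges they held 5, 12 and 8 Fcer1g UMIs. The second of these carried 121 UMIs of Gzma, 20 of Gzmb and 162 of Ccl5, and the first carried 2 UMIs of Ncr1 and 8 of Ccr7. In the young choroid plexus the cells held 22, 2, 5 and 13 Fcer1g UMIs, and those with 22 and 13 carried 24 and 14 UMIs of Gzmb. The cell of the aged choroid plexus held 2 Fcer1g UMIs at a depth of 841 UMIs. Of the 8 cells, 7 had only 1 or 2 Cd8a UMIs. Among cells with 3 or more Cd8a UMIs Fcer1g was found in 1 of 23 Cd8b1-negative cells, 1 of 5 in the young libraries and 0 of 3 in the young meninges, and in 2 of 452 Cd8b1-positive cells.

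A few genes, chosen after their values were seen, were set side by side in cells with and without Fcer1g. Of the 8 cells with it 7 were young, whereas 70 of the 87 without it were aged, so the shares over all cells mix age with Fcer1g. Tyrobp, encoding the adaptor DAP12, was found in 5 of the 8 cells with Fcer1g and in 0 of the 87 without it. Klrb1c, encoding NK1.1, was found in 5 of 8 and 1 of 87, Klre1 in 5 of 8 and 11 of 87, Cd160 in 4 of 8 and 21 of 87, and Gzmb in 5 of 8 and 7 of 87. Gzmk was found in 0 of 8 and in 53 of 87, of which 48 were aged. Within the young libraries, 7 cells with Fcer1g and 17 without, Tyrobp was found in 4 and 0, Klrb1c in 4 and 1, Klre1 in 5 and 1, Cd160 in 4 and 6, Gzmb in 4 and 2, and Gzmk in 0 and 5. A gamma or delta constant region was found there in 5 and 1. Each of the 8 cells had a UMI of Ccl5 and of a Cd3 gene, 5 had Trac, 7 had Trbc1 or Trbc2, and 6 had a gamma or delta constant region, against 19 of 87. Itgae was found in 0 of 8 and 2 of 87. The 8 cells had a median of 4153 UMIs against 2916, and the part of depth in these shares was not tested.

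Of the other receptor signalling genes, Syk, a kinase recruited by the Fcer1g chain, was listed at 0 UMIs in all Cd8b1-negative and Cd8b1-positive cells. Cd247, the zeta chain that shares the role of Fcer1g at the receptor, was at 245, 183, 198 and 170 CPM against 237, 179, 216 and 193 CPM. Its log2 fold change was -0.16 ± 0.22 (SE, adjusted p = 0.997, edgeR), which did not pass the test. Of the 8 signalling genes tested, which include Hcst, Zap70, Lck, Lat and Fyn, 0 were called, with a median log2 fold change of -0.04.

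**Figure D3:**
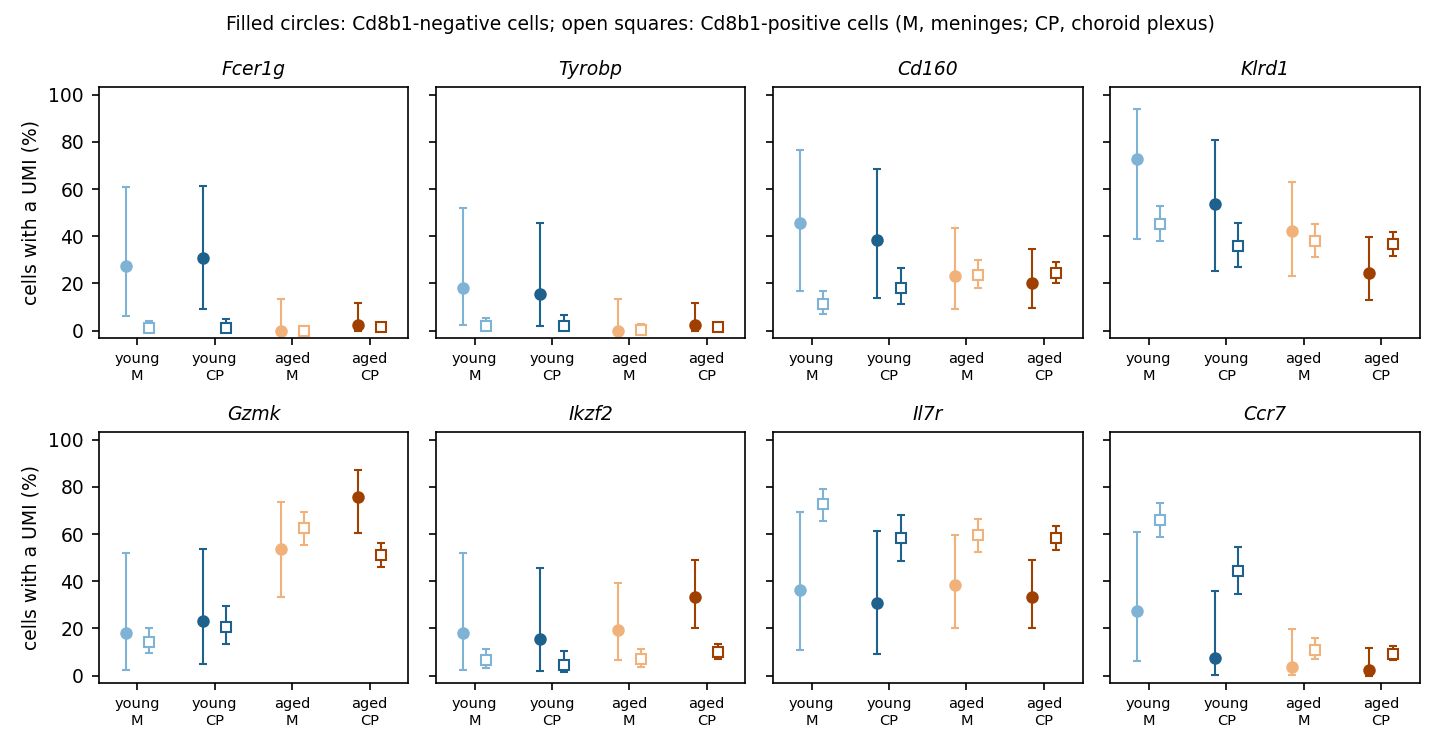
Share of cells with at least 1 UMI (%) of 8 genes in Cd8b1-negative cells (filled circles) and Cd8b1-positive cells (open squares) of each library (M, meninges; CP, choroid plexus), with 95% Clopper-Pearson intervals. Fcer1g and Tyrobp were found in Cd8b1-negative cells mainly of the young libraries, and the Gzmk share in Cd8b1-negative cells was 18.2% and 23.1% in the young and 53.8% and 75.6% in the aged libraries.

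Between ages, the Cd8b1-negative cells of both tissues shared higher Gzmk and lower Fcer1g, Gzmb, Gzma, Cd7 and Klrd1 in the aged libraries, of which the Gzma values rested on 1 young cell in each tissue and changed sign in the meninges with at most 3 UMIs counted per cell. A gene was counted where it had at least 20 UMIs over both ages, a log2 ratio of aged over young of at least 1 in size (10 CPM added) and 95% Poisson intervals that did not overlap. In the meninges 16 of 788 genes were higher (2.03%) and 15 lower (1.9%) in the aged library. In the choroid plexus 26 of 1077 were higher (2.41%) and 11 lower (1.02%). With at most 3 UMIs of a gene counted per cell, the meninges had 6 higher and 3 lower genes, and the choroid plexus 9 and 4. The sums alone do not separate more cells of 1 kind from more RNA per cell. Numbers of cells with a UMI are therefore given for some of the genes below. Tissue pool, library and age cannot be told apart.

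Gzmk, a granzyme of memory-like CD8 T cells, was at 44.6, 91.4, 631 and 563 CPM in the Cd8b1-negative cells. The log2 ratio of aged over young was 3.55 for meninges and 2.50 for choroid plexus. Among Cd8b1-positive cells Gzmk was at 123, 95.1, 512 and 319 CPM, and the ratios were 1.97 and 1.65. Both populations were thus higher with age, and whether the ratios differed was not tested. With at most 3 UMIs counted per cell the Cd8b1-negative ratios were 3.01 and 2.29.

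Gzmb, the main apoptosis-inducing granzyme, was at 579, 891, 86.7 and 29.7 CPM in the Cd8b1-negative cells, with aged over young log2 ratios of -2.61 and -4.51. Cd8b1-positive cells had it at 24.7, 38.9, 184 and 161 CPM, with ratios of 2.48 and 1.81. The directions were opposite in the 2 populations. In each library 3 Cd8b1-negative cells carried Gzmb, of 11, 13, 26 and 45, and 20 of 26 UMIs in the young meninges came from 1 cell. With at most 3 UMIs counted per cell the ratios were -1.15 and -2.32.

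Klrd1, encoding CD94, the partner chain of inhibitory and activating natural killer receptors, was at 513, 389, 198 and 141 CPM in the Cd8b1-negative cells (log2 ratios -1.33 and -1.40, or -0.998 and -1.21 with at most 3 UMIs counted per cell, the first just under the limit of size). Cd8b1-positive cells had it at 186, 145, 209 and 189 CPM. Cd7, a T-cell surface antigen, was at 579, 914, 61.9 and 274 CPM in the Cd8b1-negative cells (log2 ratios -3.04 and -1.70), and its ratio in the choroid plexus was -0.65 with at most 3 UMIs counted per cell. Fcer1g was at least 15-fold lower in the aged than in the young meninges, taken against a floor of 3 UMIs, and its log2 ratio in the choroid plexus was -5.29, or -3.74 with at most 3 UMIs counted per cell. The Gzma ratios of -2.83 and -4.70 came from 1 young cell each, and that of the meninges was 0.36 with at most 3 UMIs counted per cell.

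In the meninges the other higher genes named by the rule were Ccl1, Serpina3g, Il10ra, AY036118, Chmp4b, Taf10 and Xcl1. Serpina3g, a serine protease inhibitor of activated T cells, was detected in 15 of 26 aged cells and 0 of 11 young ones and was at least 3.7-fold higher with age, taken against a floor of 3 UMIs. It was also higher in the Cd8b1-positive cells (log2 ratio 2.76). Il10ra, the interleukin 10 receptor alpha chain, was at 22.3 and 285 CPM in the young and aged meninges (log2 ratio 3.19, 12 of 26 aged cells). All 46 UMIs of Ccl1, a chemokine of activated T cells, came from 1 aged cell. The Xcl1 ratio of 1.88 rested on the aged cell with 86 of 108 UMIs and was 0.29 with at most 3 UMIs counted per cell. AY036118 had a ratio of 2.85, or 1.74 with that limit. The other lower genes were Ccr7, Bin2, Cct7 and Vps37b, and Ccr7 had a log2 ratio of -4.42, or -3.15 with at most 3 UMIs counted per cell. That limit moved the Vps37b ratio from -1.71 to -0.81, under the limit of size.

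In the choroid plexus the higher genes named by the rule were Hist1h2ap, Stmn1, Prdx2, Camk2n1, Tspan13, Glipr2, Hist1h2ae and Atpif1. Of these, 6 had 0 UMIs in the 13 young cells, which supplied 43756 UMIs in all. Prdx2, a peroxiredoxin, was found in 20 of 45 aged cells and was at least 3.46-fold higher, and Camk2n1, an inhibitor of calcium/calmodulin-dependent kinase II, was found in 16 of 45 and was at least 2.81-fold higher, both against a floor of 3 UMIs. In the Cd8b1-positive cells of the choroid plexus Camk2n1 was also higher past the rule of size (log2 ratio 1.56), and Prdx2 was not (0.45). Over both tissues Camk2n1 was found in 26.0% of aged and 6.23% of young Cd8b1-positive cells and in 16.3% and 2.59% of Cd4-positive cells. Stmn1, a microtubule regulator of dividing cells, was found in 6 of 45 aged cells. Of the 269 UMIs of the histone gene Hist1h2ap, 262 came from 1 aged cell, and of the 21 of Hist1h2ae, 19 came from 1 cell. The Hist1h2ap ratio of 5.93 was 1.42 with at most 3 UMIs counted per cell. The other lower genes were Scaf11, Fyn and Capza1, and the Scaf11 ratio of -2.41 was -1.53 with that limit.

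**Figure D4:**
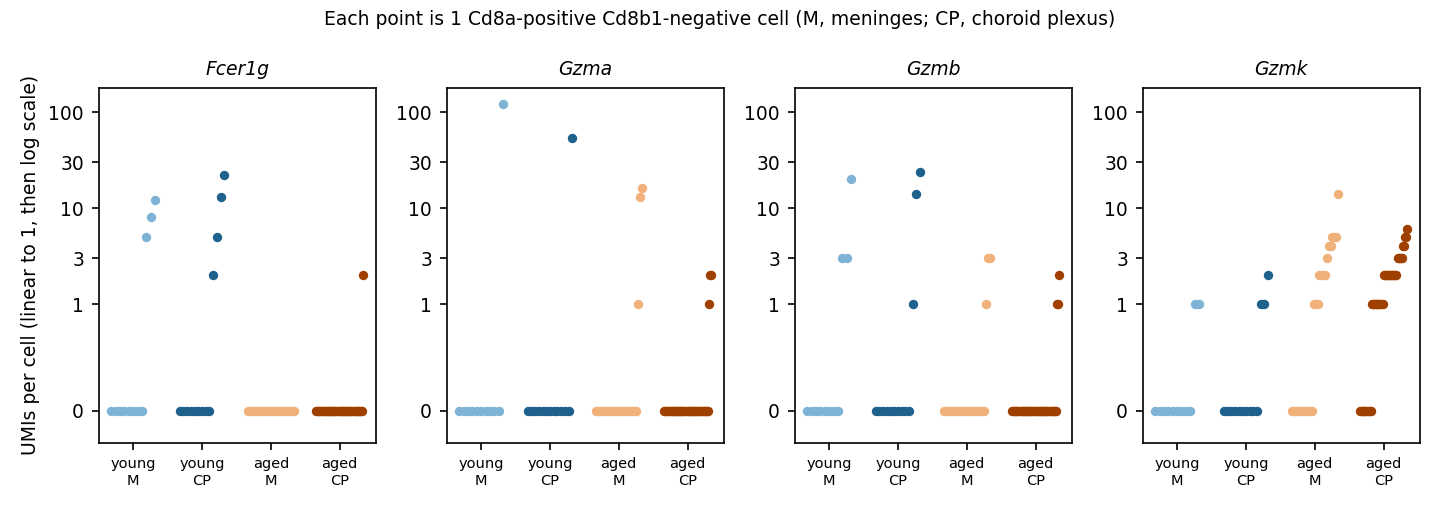
UMIs per cell (linear to 1, then log scale) of Fcer1g, Gzma, Gzmb and Gzmk in each of the 95 Cd8a-positive Cd8b1-negative cells, by library (M, meninges; CP, choroid plexus). Gzma reached 121 UMIs in 1 cell of the young meninges and 53 in 1 cell of the young choroid plexus, whereas Gzmk was spread over 14 of 26 and 34 of 45 aged cells at no more than 14 UMIs each.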

How the data were processed

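T cells sorted from the meninges and choroid plexus were profiled by 10x Genomics 5′ single-cell RNA-seq in 4 libraries. The authors deposited UMI counts (whole numbers, not normalized) for 31053 genes, made with Cell Ranger. The file headers give version 3.1.0 and the submitters' processing notes 5.1.0, with STAR and mm10. The limits on genes and mitochondrial UMIs are those of the study. The cells, gene lists and comparisons were chosen with earlier results of these data known.

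UMIs were summed per library and population. Summed Cd8b1-negative cells held 43756 to 134907 UMIs. Sums were tested with edgeR 4.0.16 (glmQLFit and glmQLFTest, TMM, filterByExpr by population, R 4.3.3), with library as a block, Benjamini-Hochberg adjustment over 3569 genes and a threshold of 0.05. The genes of the gate were left out. Both populations of a library come from the same pool of mice, and their deviations from the population means correlated across genes (r = 0.18 to 0.32 within a library, at most 0.07 between libraries). The libraries differ in age and tissue, and may share mice within an age, so p-values cover no spread beyond these 4 libraries. A gene's own spread supplied 3 degrees of freedom, and the spread shared across genes a median of 42.2. Both p-values and SE therefore rest mostly on the shared spread and can understate that of 1 gene. For Gzma the SE was 0.32, with library log2 ratios from 3.75 to -0.76. On simulated data for this comparison, with 3326 genes passing the count limit, 73 of 100 genes changed by a log2 fold of 1.5 and 86 of 100 changed by 3 were recovered, with 6 false calls among 3152 unchanged genes. The simulated sums were drawn from the fitted dispersions and held no single cells with most UMIs of a gene. Real sums did, as for Gzma and Xcl1, so these rates may not hold for them. The aged and young libraries were compared with the rule of size stated beside the result.

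The study removed doublets in its own analysis, but the deposited matrices hold cells beyond its limits and were not taken as free of doublets. Here doublets were marked with Scrublet in scanpy 1.11.5, which marked 43 of 4208 cells, 2 of them Cd8b1-negative, and 5 in the aged libraries. They were kept, and an alternative removed them with the 5% of cells of highest score. Libraries shared at most 3 barcodes. Cells were thinned by drawing 1000 UMIs without replacement, which left out 5 Cd8b1-negative and 8 Cd8b1-positive cells below that depth. Intervals are exact Clopper-Pearson (shares) or Poisson (sums), computed in Python 3.11.15 with scipy 1.17.1, and UMIs of 1 cell are not independent. Gene positions are those of GENCODE vM21 (GRCm38), where 30934 gene IDs were found.

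Named genes were the genes of the gate and Fcer1g, members of the lists past the threshold or with a defining role, the 15 genes of highest and of lowest log2 fold change past the threshold with the same sign in 4 libraries, or, where fewer than 5 passed in a direction, the 5 of smallest p (here also Ccl5 and Efhd2, the latter with an adjusted p of 0.352 by edgeR, with no call), and for each tissue 8 genes of highest and 8 of lowest ratio of aged over young past the rule of size. T-cell receptor and immunoglobulin segments, mitochondrial, ribosomal protein and predicted genes were left out. Gzma and Ly6c2 were named as list members. Of the listed genes, Cd244a, Trgc1, Trgc2 and Trgc4 were not matched. The lists of natural killer T and innate-like, co-receptor and dissociation stress genes had 5, 10 and 11 genes tested, of which 0 were called. The alternatives tried were DESeq2 1.42.0, other normalization, no count limit, thinning, a stricter Cd8a gate, removal of doublets, of Ccr7-positive cells, of cells with gamma-delta constants and of each library, a fit without the block, and, chosen after seeing the data, at most 3 UMIs of a gene per cell and removal of Fcer1g-positive cells.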

Additional observations from a re-analysis of the deposited data

Results flagged for a closer look

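In 7 of the 38 genes checked, both young libraries differed in one direction between Cd8b1-negative and Cd8b1-positive cells and both aged libraries in the other. Of the 32 of these genes that reached the count limit, 6 (18.8%) had this pattern, against 434 of all 3569 genes tested (12.2%). The genes checked were those named in the text, and Gzmb, Gzmk and Klrd1 were named by their aged over young ratios in these data. The larger share is therefore partly built in. The difference between the ages was not tested, since each age and tissue has 1 library. Values below are the mean log2 ratio of Cd8b1-negative over Cd8b1-positive cells in the young libraries minus that in the aged libraries. For Gzmb the means were 4.15 in young and -1.56 in aged libraries, a difference of 5.70. For Cd244, a receptor of natural killer cells, the difference was 2.57, from counts of at most 3 UMIs in each set of Cd8b1-negative cells. Klrd1 differed by 1.63 and Il2rb, the beta chain of the interleukin 2 and 15 receptors, by 1.59, both higher in the Cd8b1-negative cells of the young libraries. Zap70, a kinase of receptor signalling, differed by 0.85, and Cd247 by 0.18 with ratios near 0 throughout. Gzmk had the opposite order, with means of -0.67 in young and 0.55 in aged libraries, a difference of -1.22.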

How the results depend on the processing

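The shares of Cd8a-positive cells without Cd8b1 rose to 26.6%, 24.6%, 32.6% and 38.0% after thinning to 1000 UMIs and gating again, and with at least 2 Cd8a UMIs they were 7.27% in the aged meninges and 7.62% in the aged choroid plexus. They moved by less than their intervals with a mitochondrial limit of 10% and with doublets removed. The 4 genes higher and 7 lower became 1 and 0 with DESeq2, 10 and 13 without a count limit, 0 and 0 after thinning (888 genes tested), 0 and 0 with at least 2 Cd8a UMIs (where Il7r, Ikzf2, Trbv1 and Xcl1 had fold changes at least as large as in the main comparison), 2 and 2 with doublets removed, 0 and 1 without Ccr7-positive cells, 1 and 3 without cells with gamma-delta constants, 2 and 5 with at most 3 UMIs of a gene per cell, 2 and 2 without Fcer1g-positive cells, and 4 and 7 with the size factors of DESeq2. The unadjusted p was under 0.05 for 42 genes after thinning and 128 with at least 2 Cd8a UMIs. After thinning, the log2 fold change was -1.19 for Ly6c2 and 1.18 for Xcl1, against -1.06 and 1.07 in the main comparison. It was -0.89 for Il7r against -1.02, -0.80 for Tsc22d3 against -0.92, and 1.42 for Gzma against 2.06. Without the replicate block that pairs the populations of a library, 0 genes were higher and 0 lower (132 with an unadjusted p under 0.05). Leaving out 1 library gave 2 to 7 genes higher and 2 to 7 lower. The fold changes of the 11 genes kept their sign under every alternative in which they were tested, 9 to 15 of 15. These fits reuse the same cells or part of them, so a kept sign is not separate evidence. Gzma kept its sign with a log2 ratio of -0.76 in the aged choroid plexus.

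The counts of genes higher and lower in the aged meninges (16 and 15) became 3 and 2 after thinning and 6 and 3 with at most 3 UMIs of a gene per cell. Lower genes were 5 with at least 50 UMIs, 7 with at least 2 Cd8a UMIs and 6 without Fcer1g-positive cells. In the choroid plexus (26 and 11) they became 4 and 2 after thinning, 9 and 4 with at most 3 UMIs of a gene per cell, and 13 and 4 with at least 50 UMIs, and lower genes were 7 with at least 2 Cd8a UMIs. The causes were not tested, other than that thinning and the limit of 50 UMIs leave fewer genes measured. The shares of cells with Fcer1g stayed within their intervals when not thinned, thinned to a higher number of UMIs, with at least 2 Cd8a UMIs and with doublets removed, but those intervals are wide. The young libraries supply 11 and 13 cells, in which 1 cell can set a level, and 1 library per age and tissue leaves pool, library and age confounded.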
